A study of Mus musculus with 12 samples.

Results

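The genes described here are 10 members of the cytokine axis that ends in the transcription factor STAT3: the ligands Il6, Il11, Osm, Il22 and Il10, the receptor genes Osmr, Il6st and Il6ra, Stat3 itself and its feedback inhibitor Socs3. They were found by gene symbol among the probes of a mouse expression array. The array held 14 probes for these 10 genes, and all 10 genes were among the 23739 genes tested, since each had a probe that all 3 arrays of 1 group or more measured well above background. A probe counted so where the scanner software marked at least 50% of its spots as well above background.

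Colon mucosa was scraped from 12 C57BL/6 mice, 1 mouse per array, in 4 groups of 3. All were wild-type recipients of donor bone marrow, either from Muc1 knockout mice (KO marrow) or from wild-type mice (WT marrow), so that cells of the colon wall that do not come from marrow could carry Muc1 in every group. KO_AOMDSS and WT_AOMDSS mice received azoxymethane (AOM, 12.5 mg/kg), a colon carcinogen, and then dextran sodium sulfate (DSS) to drink, which injures the colon lining. DSS began 5 days after AOM, ran at 2% for 4 days and then stopped for 14 days, 2 times over, and was given at 2.5% for a last 5 days, with the colon taken 1 day later. KO_untreated and WT_untreated mice received neither agent. How far donor cells had replaced the host's blood cells, and the age of the mice, are not given in the sources used here.

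IL-6, IL-11 and oncostatin M (the product of Osm) are cytokines of one family. Each binds a receptor chain of its own, and all signal through the shared chain gp130, the product of Il6st, whose associated JAK kinases activate STAT3. IL-22 and IL-10 use receptors of another family that also activate STAT3. In the colon, IL-22 from lymphoid cells acts on the epithelium and IL-10 restrains inflammation. SOCS3 binds gp130 and the kinases, shuts the signal off, and is itself made in response to STAT3.

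The arrays lay on 3 slides of 4 arrays. Slide 1 held KO_untreated 1 and the 3 WT_untreated mice. Slide 2 held KO_AOMDSS 3, WT_AOMDSS 3 and KO_untreated 2 and 3. Slide 3, scanned on another day, held KO_AOMDSS 1 and 2 and WT_AOMDSS 1 and 2. WT_AOMDSS 3 was the dimmest array, with a 75th percentile of 153.2 signal units, against 332 to 767.8 on the other 11. The arrays measured 57.9% to 78.2% of probes well above background, with 0 saturated spots. Epithelial marker genes summed to between 1080 and 2470 times the 75th percentile over all mice. Muc1 averaged -1.90 ± 0.79 on the log2 scale in KO_AOMDSS, -2.39 ± 1.04 in WT_AOMDSS, -2.94 ± 0.84 in KO_untreated and -1.82 ± 0.38 in WT_untreated mice (SD, n = 3 each), with a lowest limma adjusted p of 0.425 over the 6 comparisons. Since the recipients were wild type, that probe cannot check the marrow labels.

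Averaged over both marrows, 5 of the 10 genes were higher past the threshold in treated than in untreated mice, and 0 were lower. The 5 were Socs3, Osmr, Il22, Il6 and Il6st. These are the feedback inhibitor, 1 ligand of each receptor family, the shared receptor chain and a receptor chain for oncostatin M. Stat3, Il6ra, Il10, Il11 and Osm did not pass. Il6 and Il22, and a second probe of Osmr, met the rule for testing only through the KO_AOMDSS arrays. That they were tested thus depended on treated mice, in which they were high. Over all genes, 21% passed in this comparison, 7.55% as higher and 13.5% as lower. The median log2 change was 1.07 over the 10 genes and -0.19 over all genes tested. Treatment was largely confounded with slide in this fit: slide 1 held only untreated mice, slide 3 only treated mice, and slide 2 both. With slide as a block, 6 of the 10 genes and 6.2% of all genes passed, and Il6st did not (limma adjusted p = 0.203). Values below are log2 signals relative to the 75th percentile of the same array, so that 0 is that percentile, and a call is a limma adjusted p (Benjamini-Hochberg, over all genes) under 0.05. A lower signal in scraped mucosa can mean fewer cells of a type or less RNA per cell, and these cannot be told apart here.

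**Figure D1:**
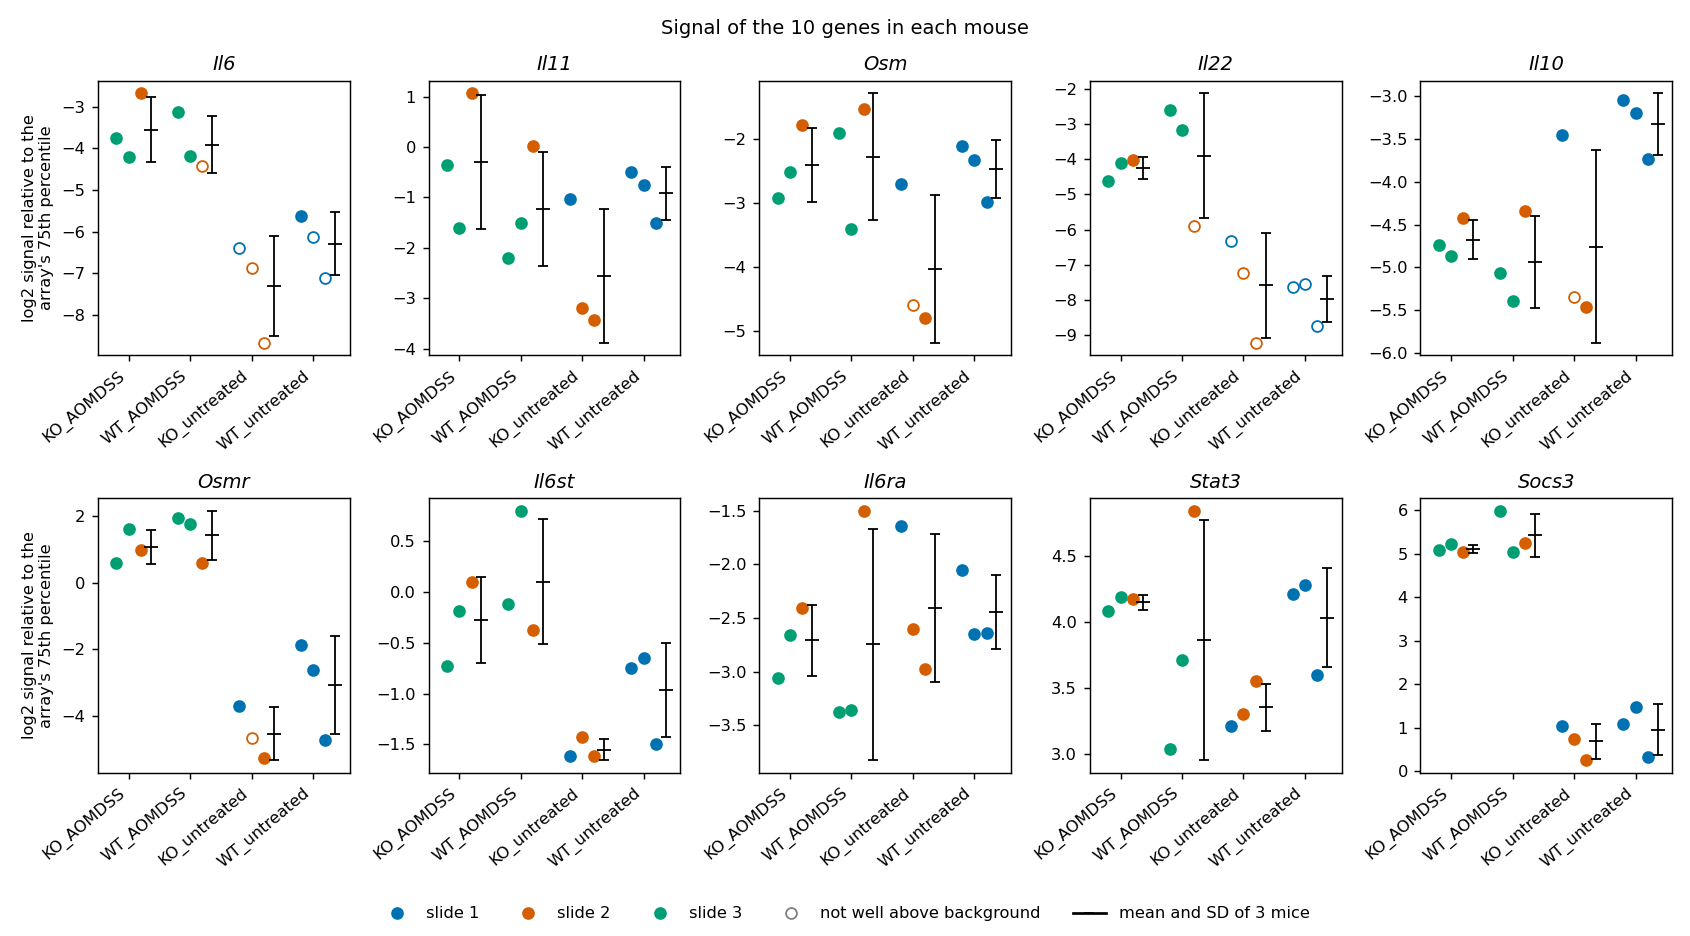
Log2 signal scaled to the 75th percentile of its array (vertical axes) for the 10 genes in each of the 12 mice by group, with points coloured by slide, open where not well above background, and the mean and SD of the 3 mice beside them. The 6 treated mice lay above all 6 untreated mice for Socs3, Osmr, Il6 and Il22, while for Il11, Osm and Il10 the 2 untreated mice on slide 2 lay below the 4 on slide 1.

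Promoters of the 3 genes among those called that held a searched motif are shown first, as RefSeq gives them for the build GRCm38.p6, from 250 bases before to 50 after the start of the gene. The table held promoters for 8 of the 10 genes (not Osm and Il10), with a second one for Il11. Capitals mark matches, searched on both strands, to TTCNNNGAA (STAT), TGANTCA (AP-1), GGGANTTTCC (NF-kB) and TTGCNNAA (C/EBP). The Il6 promoter is chr5:30012864-30013163 on the plus strand, that of Osmr chr15:6874264-6874563 on the minus strand and that of Socs3 chr11:117969317-117969616 on the minus strand.
Il6 promoter: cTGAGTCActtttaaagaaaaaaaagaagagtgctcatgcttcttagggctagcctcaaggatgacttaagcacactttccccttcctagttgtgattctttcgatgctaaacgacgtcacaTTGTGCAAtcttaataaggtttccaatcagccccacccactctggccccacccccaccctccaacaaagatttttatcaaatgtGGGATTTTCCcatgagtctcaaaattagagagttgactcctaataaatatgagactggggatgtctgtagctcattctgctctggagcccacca
Osmr promoter: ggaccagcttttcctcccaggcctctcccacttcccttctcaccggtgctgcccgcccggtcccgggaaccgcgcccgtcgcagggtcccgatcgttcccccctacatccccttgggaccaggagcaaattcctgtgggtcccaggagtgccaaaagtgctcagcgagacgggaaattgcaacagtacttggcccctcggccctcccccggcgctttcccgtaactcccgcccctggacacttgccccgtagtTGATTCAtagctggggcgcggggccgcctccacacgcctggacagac
Socs3 promoter: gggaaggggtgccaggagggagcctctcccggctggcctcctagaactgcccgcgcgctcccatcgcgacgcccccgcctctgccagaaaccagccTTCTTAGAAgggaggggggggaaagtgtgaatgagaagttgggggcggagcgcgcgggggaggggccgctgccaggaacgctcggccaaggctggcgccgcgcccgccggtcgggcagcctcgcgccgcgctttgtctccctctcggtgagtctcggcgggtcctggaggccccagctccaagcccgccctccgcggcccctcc
Of the 8 genes with a promoter, 1 (Socs3) held the STAT letters, at -154 to -146 from the start. These letters stood in 8.3% of 32851 mouse promoters of the same length and, counted by gene with any of its promoters, in 9.55% of 27025 genes. The AP-1 letters stood in 3 of the 8 genes (Il6, Osmr and, by its second promoter, Il11), against 8.97% of all genes and 7.81% of all promoters. Il6 alone held the NF-kB letters, at -44 to -35, against 0.466% of all genes and 0.411% of all promoters. It alone also held the C/EBP letters, at -128 to -121, against 12.2% of all genes and 10.8% of all promoters. The 3 kinds of match in Il6 did not overlap. A match is a run of letters and not a measured binding site.

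Il6, the ligand that gives the family its name, stood at -3.76, -4.20 and -2.68 in KO_AOMDSS mice and at -3.13, -4.17 and -4.43 in WT_AOMDSS mice. In untreated mice it stood at -6.39, -6.87 and -8.67 with KO marrow and at -5.62, -6.14 and -7.11 with WT marrow. All treated mice were above all untreated mice, as they were for 4 of the 10 genes and for 4.11% of all genes without missing values. Averaged over marrows the log2 change was 3.07 ± 0.52 (SE, adjusted p = 0.00237). Only 1 of the 6 untreated arrays had the probe well above background, so the low level was mostly at the limit of detection. With KO marrow, where 0 of the 3 untreated arrays reached it, Il6 was at least 5.30-fold higher in treated mice (log2 change 3.76 ± 0.74, adjusted p = 0.0149). "At least" is used where no array of a group was well above background: the brighter group's mean is set against the lowest signal well above background on the dim arrays, or the probe's own where higher. That mean takes every array of the brighter group at its measured value, also one that missed background. The value holds for the scanner software's own background correction and is not a floor under another correction.

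Il6 was printed 10 times on the array, which gave a check of the signal within each mouse. The 10 spots had an SD of 0.10 to 0.15 (log2) on the 5 treated arrays where the probe was well above background and of 0.40 on WT_AOMDSS 3. On the 4 arrays of slide 1, all untreated, the SD was 0.81 to 1.20. There the 3 spots in the first 266 of the array's 532 rows averaged -5.58 on KO_untreated 1 and -4.89, -5.72 and -6.30 on WT_untreated 1 to 3. The 7 spots in the remaining rows averaged -6.73 on KO_untreated 1 and -5.94, -6.32 and -7.46 on WT_untreated 1 to 3. The first rows were thus brighter on each of these 4 arrays, by 0.60 to 1.17, whereas on slide 2 the difference was at most 0.15 and on slide 3 at most 0.06 in size. Whether the position on the array bears on the change in Il6 was not tested. With normexp background correction the averaged change was 1.43 (adjusted p = 0.061), which did not pass. With KO marrow the normexp change was 1.22 (adjusted p = 0.634), which did not pass either. It was smaller than the at-least value above, which is 2.41 on the log2 scale. With slide as a block the averaged change was 4.17 (adjusted p = 0.0263). Within slide 2, 1 treated mouse with KO marrow lay beside 2 untreated ones. The change there was 5.09 ± 0.89, with the treated mouse assumed to vary like the others.

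**Figure D2:**
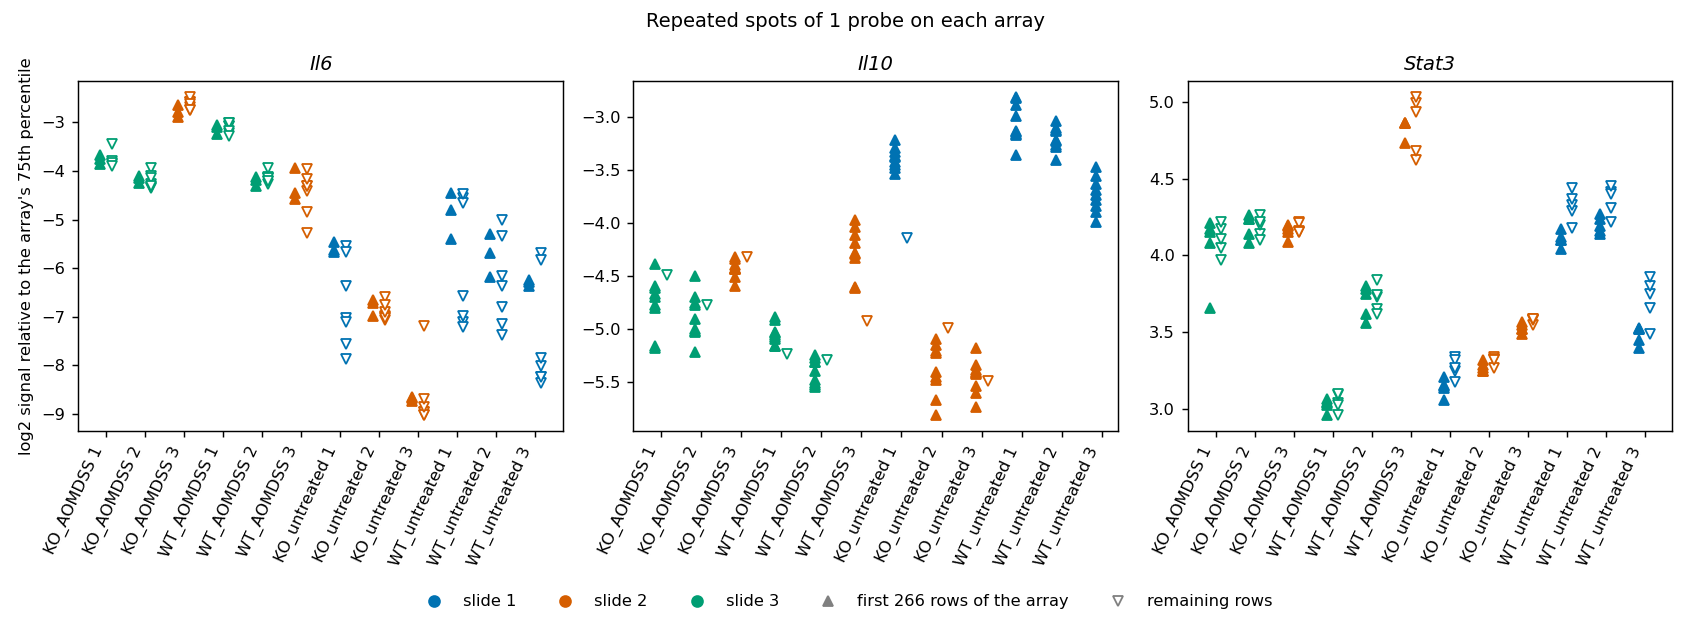
Log2 signal scaled to the 75th percentile of its array (vertical axes) of each repeated spot of the Il6, Il10 and Stat3 probes on the 12 arrays, coloured by slide, with filled triangles for the first 266 rows of the array and open ones for the rest. Spots of Il6 spread over more than 2 log2 units on the 4 slide 1 arrays, from -7.22 to -4.46 on WT_untreated 1, while those of Stat3 stayed close together on every array.

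Il22, whose product drives antimicrobial and repair genes in the epithelium, stood at -4.61, -4.10 and -4.03 in KO_AOMDSS mice and at -2.62, -3.17 and -5.91 in WT_AOMDSS mice. Its values in untreated mice were -6.31, -7.23 and -9.21 with KO marrow and -7.64, -7.54 and -8.73 with WT marrow. The treated and untreated mice did not overlap, and 5 of the 6 treated arrays had the probe well above background, against 0 of the 6 untreated arrays. The probe was tested only because all KO_AOMDSS arrays measured it well above background, so these counts are a description. Il22 was at least 3.53-fold higher over both marrows (log2 change 3.70 ± 0.66, adjusted p = 0.00318). The treated mouse that missed background, WT_AOMDSS 3, was the array with the low 75th percentile. A dimmer second Il22 probe had values of -6.11, -5.40 and -5.37 in KO_AOMDSS, -4.19, -5.01 and -5.88 in WT_AOMDSS, -8.27, -6.97 and -7.65 in KO_untreated and -7.57, -7.44 and -8.50 in WT_untreated mice. It was also higher in each treated mouse than in each untreated mouse, but did not meet the rule on dim probes. With slide as a block, Il22 changed by 4.08 (adjusted p = 0.0435), and with normexp background correction by 1.5 (adjusted p = 0.0436). The normexp change was smaller than the at-least value above, which is 1.82 on the log2 scale. That value counts WT_AOMDSS 3 at its measured signal, so it is not a strict bound.

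Il11, a ligand made mainly by stromal cells, stood at -0.35, -1.60 and 1.06 in KO_AOMDSS mice and at -2.21, -1.50 and 0.01 in WT_AOMDSS mice. Untreated mice had -1.03, -3.20 and -3.44 with KO marrow and -0.50, -0.75 and -1.51 with WT marrow. The groups overlapped. The averaged change of 0.97 ± 0.54 did not pass (adjusted p = 0.205). The untreated values divided by slide: the 4 mice on slide 1, KO_untreated 1 among them, lay between -1.51 and -0.50. The 2 on slide 2, both with KO marrow, lay at -3.20 and -3.44. Only 1 mouse, KO_untreated 1, separates slide from marrow here, so the 2 cannot be told apart. With slide as a block the averaged change was 3.80 (adjusted p = 0.00452), which passed. Within slide 2 alone, KO_AOMDSS 3 exceeded KO_untreated 2 and 3 by 4.38 ± 0.58 (adjusted p = 0.00547, 1 treated mouse, assumed to vary like the others).

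Osm, made mainly by myeloid cells and lymphocytes, had the same division. It stood at -2.93, -2.52 and -1.79 in KO_AOMDSS mice and at -1.91, -3.40 and -1.54 in WT_AOMDSS mice. With KO marrow the untreated values were -2.71, -4.59 and -4.79, and with WT marrow -2.11, -2.34 and -2.98. The groups overlapped, and the 2 lowest mice were KO_untreated 2 and 3 on slide 2. The change was 0.90 ± 0.45 without the block (adjusted p = 0.156) and 2.90 with slides blocked (adjusted p = 0.0198). A second Osm probe was dim, between -7.04 and -5.02 in treated mice of both marrows and between -8.01 and -5.62 in untreated mice, and did not meet the rule on dim probes.

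Il10, the gene of the restraining cytokine, stood at -4.74, -4.87 and -4.42 in KO_AOMDSS mice and at -5.07, -5.39 and -4.34 in WT_AOMDSS mice. Untreated values were -3.46, -5.35 and -5.46 with KO marrow and -3.05, -3.20 and -3.73 with WT marrow. With WT marrow each treated mouse was below each untreated mouse, as were 22% of all genes in that comparison, and the change of -1.60 ± 0.60 did not pass (adjusted p = 0.0846). With KO marrow the groups overlapped, with a change of 0.08 ± 0.60 (adjusted p = 0.972). The 4 untreated mice on slide 1 were again above the 2 on slide 2. Averaged over marrows the change was -0.76 ± 0.42 without and 0.96 with slide as a block, and neither passed (adjusted p = 0.202 and 0.254). So the direction of Il10 turned with the block, as it did with normexp background correction (0.66, adjusted p = 0.327). The block moved the median over all genes as well, to 0.46 with it against -0.19 without.

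Osmr, the receptor chain that pairs with gp130 to bind oncostatin M, was high in treated and low in untreated mice. It stood at 0.60, 1.61 and 1.00 in KO_AOMDSS mice and at 1.95, 1.76 and 0.59 in WT_AOMDSS mice. Untreated mice had -3.69, -4.65 and -5.26 with KO marrow and -1.88, -2.62 and -4.71 with WT marrow. No treated mouse overlapped an untreated one. The averaged log2 change was 5.05 ± 0.47, or 33.2-fold (adjusted p = 4.17e-05), and 5.44 with slides blocked (adjusted p = 0.00663). With normexp background correction it was smaller, 3.39 (adjusted p = 1.12e-07). A dimmer second probe of Osmr, with 0 of 6 untreated arrays well above background, gave at least 2.71-fold (log2 change 2.67 ± 0.56, adjusted p = 0.00842 in a fit of all probes). It stood at -4.83, -4.01 and -4.68 in KO_AOMDSS and at -3.65, -3.52 and -5.43 in WT_AOMDSS mice. Its untreated values were -7.59, -6.56 and -8.44 with KO marrow and -5.16, -6.73 and -7.64 with WT marrow, so that with this probe WT_AOMDSS 3 lay below WT_untreated 1.

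Il6st, the gene of gp130, changed less. Its values were -0.73, -0.19 and 0.10 in KO_AOMDSS and -0.12, 0.80 and -0.37 in WT_AOMDSS mice. Untreated mice had -1.61, -1.43 and -1.61 with KO marrow and -0.75, -0.65 and -1.50 with WT marrow. With KO marrow all treated mice were above all untreated mice, as were 10.9% of all genes in that comparison. Across the marrows the mice overlapped, since KO_AOMDSS 1 was below WT_untreated 2. The averaged change was 1.17 ± 0.26, or 2.25-fold (adjusted p = 0.00996). With slide as a block it was 1.07 and did not pass (adjusted p = 0.203).

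Il6ra, the receptor chain that binds IL-6, had a pair of probes that differed. The brighter one stood at -3.06, -2.66 and -2.41 in KO_AOMDSS and at -3.38, -3.36 and -1.50 in WT_AOMDSS mice. Untreated mice had -1.64, -2.60 and -2.98 with KO marrow and -2.05, -2.65 and -2.64 with WT marrow, and the groups overlapped. Its change was -0.30 ± 0.38 (adjusted p = 0.587), and 1.24 with slides blocked (adjusted p = 0.154).

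The other Il6ra probe stood at -4.54, -4.00 and -3.28 in KO_AOMDSS and at -5.01, -4.78 and -2.27 in WT_AOMDSS mice. Untreated values were -1.71, -3.26 and -3.40 with KO marrow and -1.40, -1.48 and -1.98 with WT marrow. It fell by 1.78 ± 0.50 on the log2 scale (adjusted p = 0.0279 in the fit of all probes). In both treated groups the slide 2 mouse was the highest, and with WT marrow that mouse stood well above the other two. On slide 2, the only slide with treated and untreated mice, the fall was not seen. KO_AOMDSS 3 stood there at -3.28 and WT_AOMDSS 3 at -2.27, beside KO_untreated 2 and 3 at -3.26 and -3.40. This probe was not fitted with slide as a block, and the part of the slide in its fall was not tested. So the Il6ra call depends on the probe and was not seen within slide 2.

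Stat3, the transcription factor shared by all these receptors, stood at 4.08, 4.19 and 4.17 in KO_AOMDSS mice and at 3.04, 3.71 and 4.84 in WT_AOMDSS mice. The untreated values were 3.21, 3.30 and 3.55 with KO marrow and 4.21, 4.28 and 3.60 with WT marrow. With KO marrow all treated mice were above all untreated mice, as were 10.9% of all genes in that comparison. With WT marrow the groups overlapped, and WT_AOMDSS 1 was the lowest mouse of the 12. The change was 0.79 ± 0.36 with KO marrow (adjusted p = 0.342), -0.17 ± 0.36 with WT marrow (adjusted p = 0.776) and 0.31 ± 0.26 averaged (95% interval -0.25 to 0.87, adjusted p = 0.395). These are levels of the transcript, and the active, phosphorylated form of the protein was not measured.

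Socs3, the feedback inhibitor, stood at 5.07, 5.21 and 5.03 in KO_AOMDSS mice and at 5.98, 5.03 and 5.23 in WT_AOMDSS mice. Untreated mice had 1.05, 0.75 and 0.26 with KO marrow and 1.08, 1.48 and 0.32 with WT marrow. The treated mice were more than 3 log2 units above every untreated mouse, and within each of the 4 groups the SD was 0.09 to 0.58. Averaged over marrows the change was 4.43 ± 0.23, or 21.6-fold (adjusted p = 9.07e-07), and it was 4.67 with slides blocked (adjusted p = 0.000565).

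**Figure D3:**
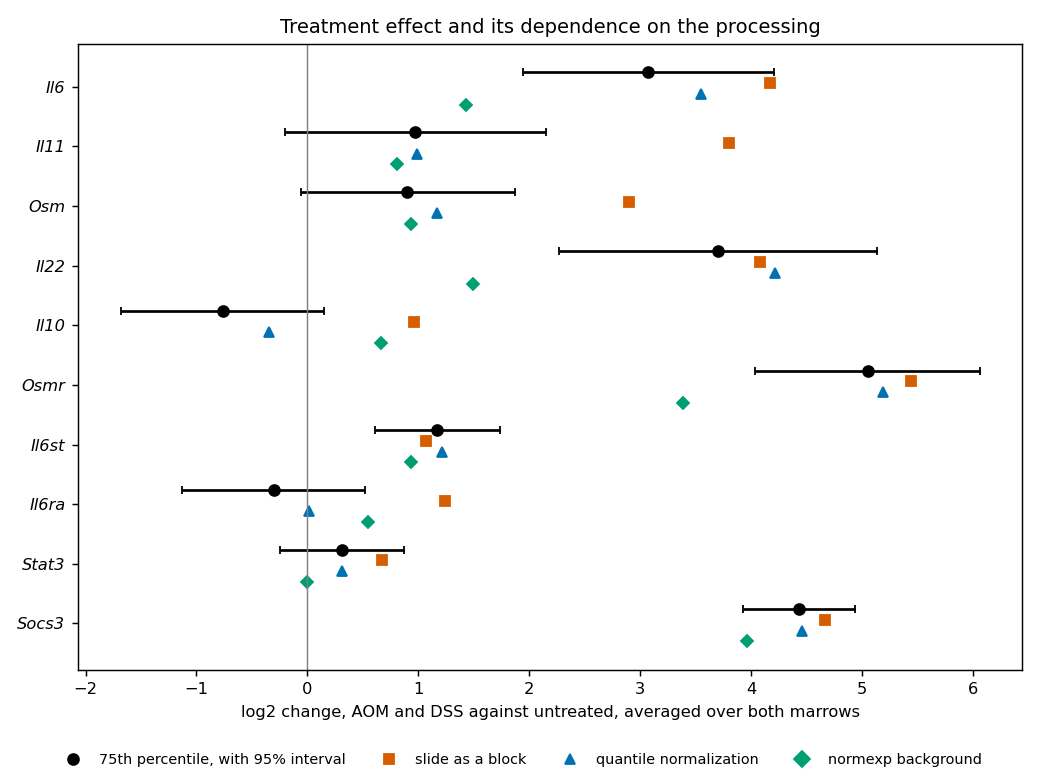
Log2 change of the 10 genes between AOM and DSS treated and untreated mice, averaged over both marrows (horizontal axis), with 95% intervals for the values scaled to the 75th percentile, and the estimates with slide as a block, quantile normalization and normexp background correction. Socs3, Osmr, Il22, Il6, Il6st, Il11 and Osm stood to the right of 0 under each, and Stat3, Il6ra and Il10 did not. With the slide as a block every gene but Il6st moved to the right, Il11, Osm, Il10 and Il6ra the most.

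Taken by marrow, 3 of the 10 genes were higher in treated mice with KO marrow (Socs3, Osmr and Il6) and 4 with WT marrow (the same 3 and Il22). Over all genes, 3.16% passed with KO marrow and 13.8% with WT marrow. Socs3 changed by 4.41 ± 0.33 with KO and by 4.45 ± 0.33 with WT marrow (adjusted p = 6.91e-05 and 3.77e-05). Osmr changed by 5.60 ± 0.66 with KO and by 4.50 ± 0.66 with WT marrow (adjusted p = 0.000725 and 0.00373). For Il22 the changes were 3.34 ± 0.94 with KO and 4.07 ± 0.94 with WT marrow (adjusted p = 0.0813 and 0.0208), and for Il6 with WT marrow 2.39 ± 0.74 (adjusted p = 0.0497). Il6st changed by 1.27 ± 0.37 with KO and by 1.07 ± 0.37 with WT marrow, below the threshold in both (adjusted p = 0.0939 and 0.067).

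With slide as a block, 6 of the 10 passed averaged over marrows (Socs3, Osmr, Il22, Il6, Il11 and Osm, against 6.2% of all genes). By marrow, 5 passed with KO marrow (Socs3, Osmr, Il6, Il11 and Osm, against 7.26% of all genes) and 1 with WT marrow (Socs3, against 0.535% of all genes). Osmr then changed by 5.31 with WT marrow (adjusted p = 0.0787). No slide held both groups with WT marrow, so no within-slide value can be had for them. Within slide 2, the single treated mouse with KO marrow exceeded the 2 untreated mice with KO marrow past the threshold for 6 of the 10, namely Socs3, Osmr, Il6, Il22, Il11 and Osm, with 4.15% of all genes called in either direction. The call for Il6 with WT marrow was lost without any one of 9 mice, among them each of the WT_AOMDSS and WT_untreated mice other than WT_AOMDSS 3, and the call for Il22 without any one of those 5. With KO marrow the call for Il6 was lost without KO_AOMDSS 1, KO_AOMDSS 3 or KO_untreated 3. Without WT_AOMDSS 3, the array with the low 75th percentile, 5 passed with KO marrow (Il22 and Il6st in addition, against 5.34% of all genes). With WT marrow 6 then passed, against 32.2% of all genes, with Il6st in addition as higher and Il10 as lower.

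Between the marrows 0 of the 10 genes passed in treated mice, in untreated mice or in the difference between the 2 treatment effects (the interaction), and limma called 0% of all 23739 genes in each. At an unadjusted p under 0.05 the counts in treated mice were 0 of the 10 and 231 of all genes (0.973%). In untreated mice they were 3 of the 10 (Osm, Osmr and Il10) and 2911 of all genes (12.3%), and for the interaction 1 of the 10 (Il11) and 829 of all genes (3.49%). In treated mice the difference of KO against WT marrow was -0.31 for Socs3 (95% interval -1.02 to 0.40), -0.37 for Osmr (-1.79 to 1.06), 0.36 for Il6 (-1.24 to 1.97) and -0.34 for Il22 (-2.37 to 1.68). These intervals leave room for differences of more than 1 log2 unit in either direction for Osmr, Il6 and Il22.

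Slides 2 and 3 each held treated mice of both marrows, 1 mouse of each on slide 2 and 2 of each on slide 3. The slide 2 values thus compare 1 array with 1 array, and their SE takes its spread from the groups with more than 1 mouse on a slide. For Socs3 the difference was -0.20 ± 0.56 on slide 2 and -0.37 ± 0.40 on slide 3, and Osm and Il11 also kept 1 sign. The other 7 genes had opposite signs on the 2 slides. For Il6 the difference was 1.75 ± 1.02 on slide 2 and -0.33 ± 0.72 on slide 3, and for Il22 1.89 ± 1.02 on slide 2 and -1.46 ± 0.72 on slide 3, with none past the threshold. For Stat3 it was -0.67 ± 0.41 on slide 2 and 0.76 ± 0.29 on slide 3. In untreated mice the differences of -1.55 ± 0.63 for Osm and -1.43 ± 0.60 for Il10 were -0.23 ± 0.59 and -0.13 ± 0.50 within slide 1, where KO_untreated 1, a single mouse, lay beside the WT_untreated mice. Without that mouse, all remaining KO_untreated mice were on slide 2 and all WT_untreated mice on slide 1. Osm and Il10 then passed, among 1665 of all genes, and marrow and slide cannot be told apart in that setting.

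The rest of the pathway was read from lists of 77 other genes, chosen with earlier results of these data known, of which 65 were tested. In the comparison averaged over marrows 23 were higher and 5 lower in treated mice, with 7.55% and 13.5% of all genes so called. Known STAT3 targets had the most calls: 14 of 25 tested were higher and 1 was lower, with a median log2 change of 1.07. Blocked by slide, 9 of the 25 were higher and 0 lower. The 4 largest were Reg3b (8.49 ± 1.01, adjusted p = 0.000202) and Reg3g (7.0 ± 0.80, adjusted p = 0.00015), antimicrobial lectins of the epithelium induced by IL-22, and Lrg1 (6.19 ± 0.65, adjusted p = 0.000131) and Hp (5.52 ± 0.91, adjusted p = 0.00188), which code for secreted acute-phase proteins. Blocked by slide, Hp did not pass (adjusted p = 0.0889) and the other 3 did. Neutrophils also make the products of Lrg1 and Hp.

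Of 9 other inhibitors 4 were higher and 1 lower. Socs1, a relative of Socs3 that binds JAK kinases directly, rose by 2.48 ± 0.36 (adjusted p = 0.000829), whereas Socs2, an inhibitor of growth hormone signalling, fell by 1.89 ± 0.29 on the log2 scale (adjusted p = 0.00117). Socs5 rose by 0.89 ± 0.25 (adjusted p = 0.0256) and Ptpn2, a phosphatase that acts on JAK kinases and STATs, by 0.66 ± 0.18 (adjusted p = 0.0253). Among kinases and other signal genes, those higher included Stat4 (1.38 ± 0.42, adjusted p = 0.0363), Stat5a (0.70 ± 0.17, adjusted p = 0.0148) and Stat5b (0.54 ± 0.17, adjusted p = 0.0373). Blocked by slide, Socs1 passed (adjusted p = 0.0494), and Socs2, Socs5, Ptpn2, Stat4, Stat5a and Stat5b did not. Jak1, the kinase bound to gp130, stood at 0.40 ± 0.21 (adjusted p = 0.195). Tyk2, another JAK kinase, changed by -0.05 ± 0.50 (adjusted p = 0.948), and with slide as a block by -2.36 (adjusted p = 0.0321).

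Among the receptors that partner the other ligands, 0 passed as higher. Il11ra1, the chain that binds IL-11, changed by -0.37 ± 0.18 (adjusted p = 0.142), Il10ra by -0.08 ± 0.42 (adjusted p = 0.911) and Il10rb, a chain shared by the IL-10 and IL-22 receptors, by 0.24 ± 0.16 (adjusted p = 0.295). The direction turned with slide as a block for Il11ra1 (0.14, adjusted p = 0.789) and Il10ra (1.58, adjusted p = 0.127), without passing. Il22ra1, the chain that makes epithelial cells responsive to IL-22, fell by 1.55 ± 0.44 on the log2 scale (adjusted p = 0.0281), but its change with slide as a block was 0.20 (adjusted p = 0.849). Il22ra2, the secreted decoy for IL-22, did not meet the rule on dim probes and was not tested. Of 5 other receptors of the IL-6 family 0 passed at the limma threshold, and 3 had an unadjusted p under 0.05, as did 38% of all genes. These 3, Lifr, Cntfr and Il27ra, had changes of -1.58, -1.16 and -1.60, and of 1.02, 1.00 and 1.04 with slide as a block, where 0 passed. The median over the 5 was -1.16 without the block and 1.02 with it. Il24, the single tested ligand of the IL-10 family besides the members, fell by 1.54 ± 0.34 on the log2 scale (adjusted p = 0.0094), and its change with slide as a block was -0.25 (adjusted p = 0.753). Of 5 genes upstream of IL-22, Il12rb1, a chain of the IL-23 receptor, was higher (1.71 ± 0.40, adjusted p = 0.0125).

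**Figure D4:**
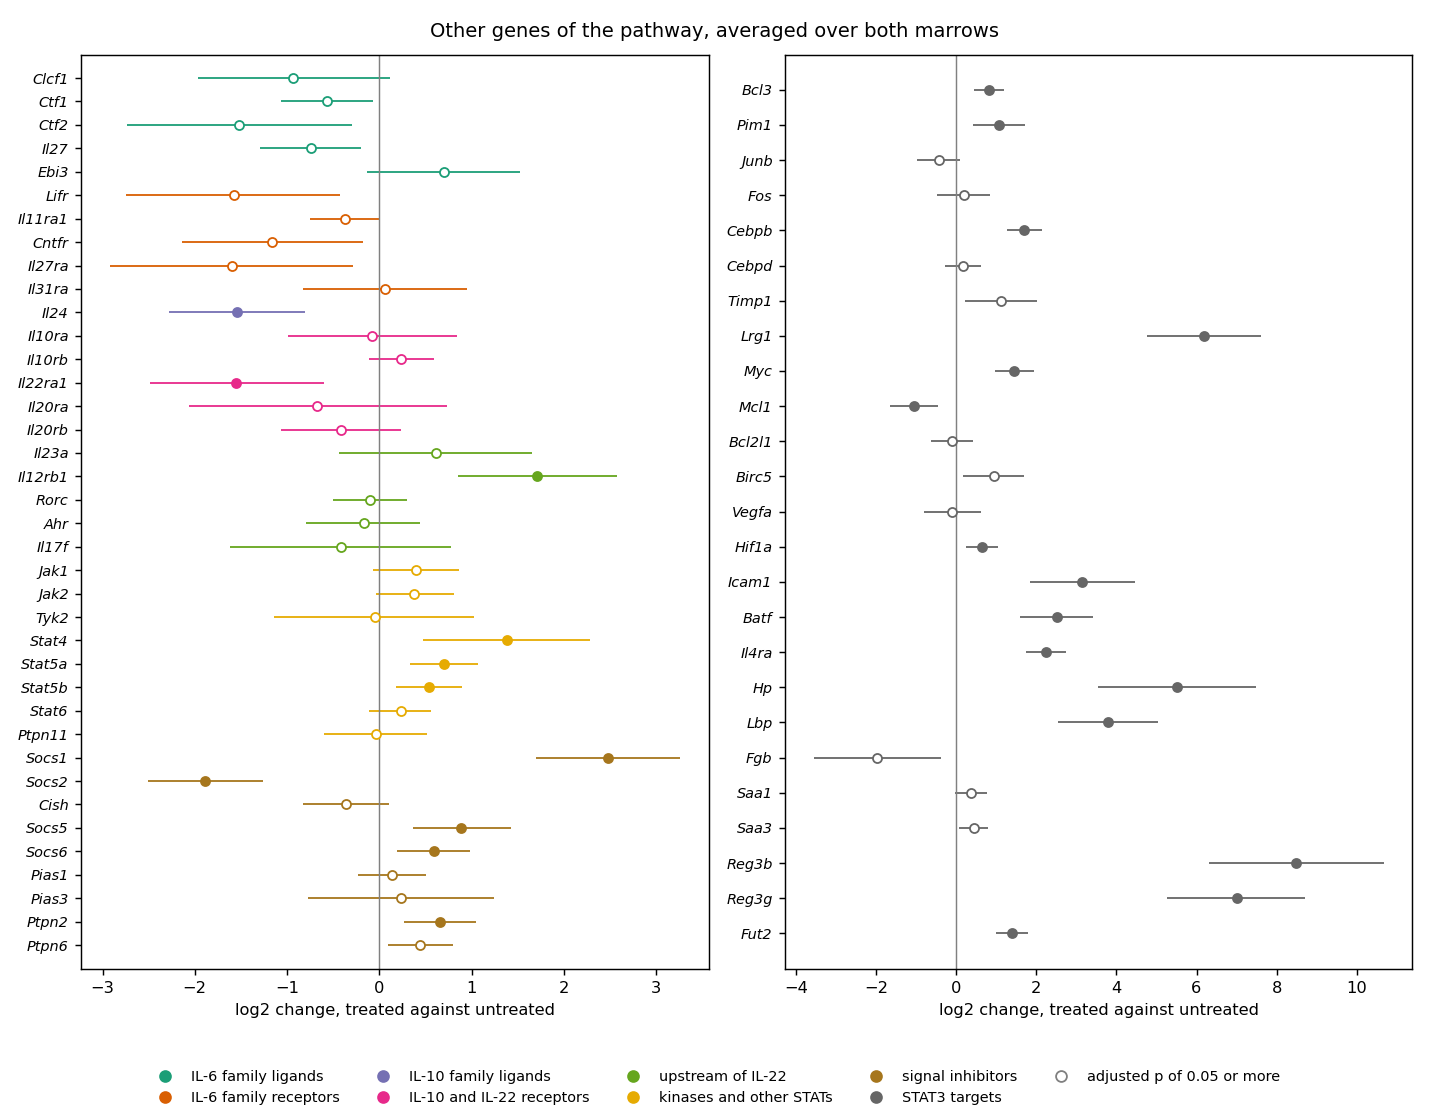
Log2 change of 63 other genes of the pathway between treated and untreated mice, averaged over both marrows, with 95% intervals and points coloured by gene list (STAT3 targets in the right panel), filled where the adjusted p was under 0.05. Reg3b, Reg3g, Lrg1 and Hp lay farthest to the right, above 5 log2 units.

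Marker genes of some other cell types were also called in the comparison averaged over marrows. Over all genes, 7.55% were higher there and 13.5% lower. Neutrophil markers were higher in 8 of 9 cases, with a median log2 change of 4.67, and their summed signal was 11.1 to 53.9 times the 75th percentile in KO_AOMDSS and 48.9 to 125 in WT_AOMDSS mice, against 0.184 to 0.407 in KO_untreated and 0.266 to 0.659 in WT_untreated mice. Macrophage markers were higher in 7 of 8 cases, with sums of 48.5 to 65.8 in KO_AOMDSS and 42.6 to 74.2 in WT_AOMDSS, against 10.5 to 19.2 in KO_untreated and 11.5 to 36.9 in WT_untreated mice. Fibroblast markers were higher in 5 of 7 cases, with sums that overlapped between the groups: 3.97 to 16.1 in KO_AOMDSS, 3.43 to 15.7 in WT_AOMDSS, 1.02 to 1.63 in KO_untreated and 1.13 to 12.6 in WT_untreated mice. T and innate lymphoid markers, the cells that make IL-22, were higher in 2 of 9 cases, with sums of 1.72 to 2.98 in KO_AOMDSS, 1.77 to 3.44 in WT_AOMDSS, 0.828 to 1.74 in KO_untreated and 1.99 to 2.51 in WT_untreated mice. B and plasma cell markers were higher in 2 of 6 cases (Jchain and Mzb1, genes of antibody-secreting cells), with sums of 17.6 to 19.2 in KO_AOMDSS, 7.9 to 24.3 in WT_AOMDSS, 3.39 to 5.27 in KO_untreated and 2.41 to 8.26 in WT_untreated mice. Of 4 squamous epithelial markers only Ly6d was higher (4.50 ± 0.50, adjusted p = 0.000131), and the sums were 10.1 to 13.7 in KO_AOMDSS and 15.8 to 17.3 in WT_AOMDSS, against 1.74 to 5.21 in KO_untreated and 3.53 to 6.04 in WT_untreated mice. The median log2 change was -0.1 for T and innate lymphoid markers, 0.23 for B and plasma cell markers and 0.08 for squamous markers. None of the smooth muscle (5), adipocyte (3), endothelial (4), glia and neuron (5) and epithelial (8) markers tested was higher. Of these, 2 epithelial markers and 1 endothelial marker were lower. Single mice stood far apart in some sums. The adipocyte sum was 67.3 in WT_untreated 2, against 1.17 in WT_untreated 1 and 1.61 in WT_untreated 3. The smooth muscle sum was 59.4 in WT_untreated 2 and 94.5 in WT_AOMDSS 2, against 3.65 to 23.6 in KO_AOMDSS mice. The highest fibroblast sum among untreated mice, 12.6, was also that of WT_untreated 2. Blocked by slide, the markers higher were 9 of 9 for neutrophils, 3 of 8 for macrophages and 1 of 7 for fibroblasts. They were 1 of 9 for T and innate lymphoid cells, 0 of 6 for B and plasma cells and 1 of 4 for squamous cells. With that block 6.2% of all genes were called in either direction. The part of these cells in the changes of the 10 genes was not tested.

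The genes whose signals followed those of a member most closely over the 12 arrays were named for the 5 members measured above background on every array, as a description, since the arrays share groups and slides. Socs3 was followed by Glipr1 (Pearson r = 0.995), Tgm2 (0.989) and Prss27 (0.988), Il6st by Rgs1 (0.974), Plekho2 (0.948) and Chil1 (0.931), and Il11 by Chil4 (0.948), Syt11 (0.945) and Ch25h (0.926). Il6ra was followed by Braf (0.978), Il2 (0.968) and Prlhr (0.960), and Stat3 by Nav1 (0.935), Riok1 (0.894) and Nkx2-3 (0.893).

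The authors' deposited table of group means listed 5 of the 10 genes: Socs3, Osmr, Il22, Il6 and Il6st, with 7 probes. These are the 5 genes called in the averaged comparison. The authors named their table as one of differentially expressed probes, and it comes from the same arrays. The match is therefore not an independent check. In the authors' deposited table Socs3 was 4.43 higher in treated than in untreated mice with KO marrow and 4.48 higher with WT marrow, on the log2 scale, and Osmr 5.62 and 4.53 higher by its brighter probe.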

How the data were processed

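The authors deposited scanner output of 12 single-colour (Cy3) Agilent arrays of design 014868, read with the scanner software Feature Extraction (version 10.7.3.1), as background-corrected intensity per spot, per the file headers. They also deposited a table of log2 group means of 2506 probes, named as differentially expressed. Over 2504 of these probes it correlated at 0.995 to 0.998 with log2 group means centred on each probe's median, so its scale and centring are taken from that match.

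Control spots and spots marked as outliers were left out. Each log2 processed signal was set relative to the array's 75th percentile, and spots of a probe were averaged. Of 41174 probes, 24375 matched a RefSeq symbol (GRCm38.p6, names only). A probe was kept if all 3 arrays of 1 group or more measured it well above background (30210 probes), and a gene was represented by its kept probe with the highest mean. That left 23739 genes, of which 1578 had a missing value on at least 1 array. The 12 arrays were fitted together, with a mean for each group, in limma 3.58.1 in R 4.3.3 (eBayes with an intensity trend, 8 residual degrees of freedom), after a test on simulated data. The 6 contrasts were adjusted by the Benjamini-Hochberg method over all genes. Slide and replicate number as blocks, fits within slides, quantile normalization, normexp (offset 50), other rules on dim probes and leaving out each mouse were alternatives. Normexp used the median spot signal, since the files read here hold no mean signal. Replicate numbers were not taken as pairs in the main fit. Deviations of same-numbered mice correlated between -0.383 and 0.512, above 0.1 in 7 of 18 pairs. Those of differently numbered mice correlated between -0.486 and 0.461, above 0.1 in 19 of 36 pairs. These correlations cannot exclude a pairing. The 3 arrays per group limit the precision.

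Named genes were the 10 members with every probe, up to 4 called genes per pathway list with the largest averaged change, the receptor and kinase partners of members, the 3 genes most correlated with each member measured on every array, and Muc1. The members and lists were chosen with earlier results of these data known. Values of 2 genes of the pathway lists are not reported here.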

Additional observations from a re-analysis of the deposited data

How the results depend on the processing

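The count of the 10 genes called in the comparison averaged over marrows was 5, and stayed at 5 when any 1 mouse was left out. It was 4 to 6 under the other alternatives except with only probes above background on all arrays, a rule that removes Il6, Osmr and Il22 and left 2. With WT marrow the count of 4 became 2 with normexp background, 1 with only probes above background on all arrays, 1 with slide as a block and 2 to 6 when a mouse was left out. With quantile normalization the counts were 5 with WT marrow and 4 with KO marrow. With KO marrow the count of 3 became 2 with normexp background, where Il6 did not pass (adjusted p = 0.634). It was 1 with only probes above background on all arrays, 5 with slide as a block and 2 to 5 when a mouse was left out. Between marrows in untreated mice it was 0, and 0 to 2 when a mouse was left out, with 2 in the absence of KO_untreated 1. For KO against WT marrow in treated mice and for the interaction it was 0 under each alternative run. Except where a rule or a left-out mouse changes what is tested, the cause of these moves was not tested.

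Over all genes, 4986 were called averaged over marrows, against 2399 with normexp background, 3311 with only probes above background on all arrays, 1471 with slide as a block and 2785 to 8863 when a mouse was left out. With WT marrow 3273 were called, against 856, 1879 and 127 under the same 3 alternatives and 487 to 7605 when a mouse was left out. With KO marrow 749 were called, against 1724 with slide as a block and 251 to 1268 when a mouse was left out. Between marrows in treated mice 560 were called within slide 2, a difference of 1 array from 1 array whose spread comes from other groups. In untreated mice 2 were called with normexp background, and 0 to 1665 when a mouse was left out. With the replicate block, 4517 genes were called averaged over marrows, 2328 with WT marrow and 714 with KO marrow, and of the 10 genes only Il6 with WT marrow lost its call (adjusted p = 0.0588). No change of the 10 genes that was called in the main fit reversed its direction under any alternative run. Il10 with WT marrow was called as lower only without KO_untreated 1 or without WT_AOMDSS 3. Its change there was 0.76 with slide as a block and 0.82 with normexp background, and neither passed. Signals of Il6, Il22 and the second probes of Osm, Osmr and Il22 lay near background in untreated mice, which limits the size of their changes.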
